A study of Mus musculus with 6 samples.

Results

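The tight junction genes described here are 10 genes, namely the claudins Cldn1, Cldn3, Cldn5, Cldn11 and Cldn12, the MARVEL-domain proteins Ocln and Marveld2, the plaque proteins Tjp1 and Cgn, and Gja1, a gap junction gene. They were chosen by name, as all probe sets that the array's annotation assigns to those symbols, which gave 24 of the 45101 probe sets. Testis RNA of mice aged 12 weeks had been measured on 6 Affymetrix arrays, 3 of jsd and 3 of SCARKO-jsd animals, the latter a group that other fields of the labels spell SCARCO-jsd and SCARO-jsd. Both groups carry the jsd mutation of Utp14b (juvenile spermatogonial depletion), under which spermatogonia persist beside the Sertoli cells of the adult tubule while later germ cells are scarce. The SCARKO-jsd animals carry in addition a conditional knockout in Sertoli cells, and the labels do not name the driver of that knockout. There was no group without the jsd mutation. Each genotype had 3 mice by the series' design, but no label ties an array to a mouse, and p-values measure only the spread among these arrays.

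Tight junctions between neighbouring Sertoli cells form the main seal of the blood-testis barrier, which keeps meiotic and later germ cells apart from blood-borne substances. Claudins are membrane proteins with a cytoplasmic tail, and they build the strands of the seal. Occludin (Ocln) lies within the strands, tricellulin (Marveld2) lies where 3 cells meet, and ZO-1 (Tjp1) and cingulin (Cgn) link the strands to actin and myosin. Connexin 43 (Gja1) forms gap junction channels between Sertoli cells and between Sertoli and germ cells, and also between Leydig cells. The comparison asks whether the genes of this barrier differ with the Sertoli cell knockout where germ cells are scarce.

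No probe set of the 10 genes passed the test between the genotypes, and most differences were small. Values are log2 expression after RMA, so a step of 1 is a 2-fold change, and differences are given as SCARKO-jsd less jsd throughout. A probe set was tested by limma if its mean over the 6 arrays lay above the dimmest 40% (above 5.69), and was called at a Benjamini-Hochberg adjusted p under 0.05 over all 27022 probe sets tested. Of the 24 probe sets 20 were tested, covering 9 genes, and the 4 probe sets of Cldn1 were too dim. Of these 20, 0 were called, where 0.5% of all probe sets tested were called, 60 of them higher (0.222%) and 75 lower (0.278%), a split that became 30 higher and 23 lower with each array centred on its median. At an unadjusted p under 0.05 there were 2 of 20, both of Ocln, beside 12.8% of all probe sets tested. With the brightest probe set per gene in place of every probe set, 3.57% of 10916 genes were called by limma and again 0 of the 8 tested members, with 1 (Ocln) at an unadjusted p under 0.05, beside 18% of all genes. Without SCARKO-jsd 2, 2.27% of all probe sets were called and still 0 of the 20. The median difference over the 20 was 0.0043, beside 0.0047 over all probe sets tested, and 10 of the 20 were above 0.

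The precision was that of 3 arrays per group. For 17 of the 20 probe sets the 95% interval of the difference lay within a 2-fold change either way, and for 10 it lay within a 1.5-fold change. The 3 whose interval reached further belonged to Marveld2, Cgn and Gja1, and each is described with its gene. In bulk RNA, fewer cells of a type and less RNA per cell cannot be told apart.

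The array SCARKO-jsd 2 was unlike the other 5. The 3' less 5' gap of beta-actin, a gauge of RNA integrity, was 1.66 log2 units on this array and 0.70 to 0.98 on the other 5, and that of Gapdh was 0.64 beside -0.28 to -0.10. It was the highest of the 3 SCARKO-jsd arrays in 15 of the 20 member probe sets, and in 55.5% of all probe sets tested. The differences of the tested members are therefore also given without it. Rhox5, an androgen-dependent Sertoli cell gene of the X chromosome, was 9.74 to 10.43 in the jsd arrays and 5.44 to 6.11 in the SCARKO-jsd arrays, which follows the labels. Most marker probe sets of Sertoli, Leydig, peritubular, endothelial and macrophage cells lay above the dim limit, with 0 called on any of these lists. In that order 4 of 14, 0 of 6, 0 of 5, 2 of 8 and 1 of 8 had an unadjusted p under 0.05, beside 12.8% of all probe sets tested. The mean level of 9 germ cell markers was 8.31 to 8.61 in jsd arrays and 9.002 to 9.313 in SCARKO-jsd arrays, without overlap, and the part of this in the results below was not tested. Of their 13 probe sets 9 were higher and 4 lower, with differences from -0.51 to 1.31. An unadjusted p under 0.05 was found for 8 of the 13, where 12.8% of all probe sets tested had one. Only 1 was called, that of Sycp3, a protein of meiotic chromosomes (1.31 ± 0.14, SE, adjusted p = 0.0331 by limma). This call ended without any 1 array except SCARKO-jsd 2 (adjusted p up to 0.175), with the median centring (0.0531) and with a replicate block (0.140). With 1 array left out the difference stayed at 1.20 to 1.40. Without jsd 1, without jsd 2 and with the block no probe set of the whole table was called, so there the loss was fixed. Without jsd 3, SCARKO-jsd 1 or SCARKO-jsd 3 only 12 to 19 were called.

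The sequences before the transcription start are shown for 4 members, because they let the gene with the lowest p (Ocln) be read beside its neighbour Marveld2 and beside the claudins that mark the Sertoli cell junction. Each is the 250 bases upstream of the outermost start that RefSeq lists (GRCm38.p6), printed 5' to 3' on the gene's own strand. They lie at chr13:100552719-100552968 on the minus strand for Ocln, chr13:100616972-100617221 on the minus strand for Marveld2, chr3:31149670-31149919 on the plus strand for Cldn11 and chr5:134985964-134986213 on the plus strand for Cldn3. Capitals mark, on either strand, the hexamer TGTTCT (a half-site of hormone response elements), the GC box GGGCGG and the CCAAT box CCAAT, and no match overlaps another in these 4.
Ocln: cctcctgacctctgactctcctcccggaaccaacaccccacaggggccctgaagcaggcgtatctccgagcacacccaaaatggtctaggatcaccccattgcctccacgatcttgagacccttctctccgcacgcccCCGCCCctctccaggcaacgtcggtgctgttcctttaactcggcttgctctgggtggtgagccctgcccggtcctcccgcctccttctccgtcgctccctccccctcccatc
Marveld2: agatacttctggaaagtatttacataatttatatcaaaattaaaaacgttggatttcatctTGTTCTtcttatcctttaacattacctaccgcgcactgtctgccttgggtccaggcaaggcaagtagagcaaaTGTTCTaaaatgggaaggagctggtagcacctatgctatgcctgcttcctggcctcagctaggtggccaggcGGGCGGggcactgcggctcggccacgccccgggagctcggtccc
Cldn11: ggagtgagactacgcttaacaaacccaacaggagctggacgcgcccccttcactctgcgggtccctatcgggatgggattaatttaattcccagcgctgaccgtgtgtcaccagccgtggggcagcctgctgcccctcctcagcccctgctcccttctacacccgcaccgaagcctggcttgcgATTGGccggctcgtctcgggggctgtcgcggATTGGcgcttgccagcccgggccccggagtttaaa
Cldn3: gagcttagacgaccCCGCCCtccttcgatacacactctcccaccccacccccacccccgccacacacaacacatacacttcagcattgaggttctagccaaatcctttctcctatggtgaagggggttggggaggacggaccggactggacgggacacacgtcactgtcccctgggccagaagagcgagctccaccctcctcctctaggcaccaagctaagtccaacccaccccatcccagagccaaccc
Marveld2 held TGTTCT 2 times and GGGCGG 1 time, Ocln and Cldn3 held GGGCGG 1 time each, and Cldn11 held CCAAT 2 times. Among all 32851 upstream sequences of this length, 16.1% held TGTTCT, 32.7% held GGGCGG and 33.8% held CCAAT. None of the other 6 members held TGTTCT in this window, nor did Cldn7, which is described with the other claudins. Ocln and Marveld2 are next to each other among the protein-coding genes of chromosome 13, as are Cldn3 and Cldn4 on chromosome 5. A match is a description of letters and not of binding.

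Occludin had the lowest p of the 10 genes, with both of its probe sets higher in SCARKO-jsd testes. On probe set 1440220_at, Ocln was 8.07, 7.80 and 7.79 in the jsd arrays, given as always in the order 1, 2, 3, and 8.24, 8.74 and 8.37 in the SCARKO-jsd arrays. On 1448873_at it was 8.93, 8.89 and 8.61 in jsd arrays and 9.30, 9.57 and 8.96 in SCARKO-jsd arrays. The groups did not overlap on either, though jsd 1 and SCARKO-jsd 3 nearly met on 1448873_at. The differences were 0.56 ± 0.16 (SE, 95% interval 0.18 to 0.95) and 0.47 ± 0.18 (0.03 to 0.90), 1.48-fold and 1.38-fold, with limma Benjamini-Hochberg adjusted p of 0.226 and 0.355. Both thus stayed outside the threshold. Without SCARKO-jsd 2, the highest array on both, they were 0.42 ± 0.12 and 0.32 ± 0.15 (limma, adjusted p = 0.146 and 0.331). Over the other settings the adjusted p of 1440220_at lay between 0.0611 and 0.594 and that of 1448873_at between 0.192 and 0.665, and both differences stayed above 0. The mean of the probe sets gave 0.51 ± 0.15 (adjusted p = 0.122).

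Tricellulin, the neighbour of occludin on the chromosome, was near the dim limit, and its difference rested on 1 array. Marveld2 was 5.99, 6.05 and 5.78 in jsd arrays and 5.95, 6.96 and 5.66 in SCARKO-jsd arrays, so SCARKO-jsd 2 alone lay above the jsd values. The difference was 0.25 ± 0.33 (SE, 95% interval -0.56 to 1.05) and turned to -0.13 ± 0.13 without SCARKO-jsd 2 (limma, adjusted p = 0.781 and 0.658).

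**Figure D1:**
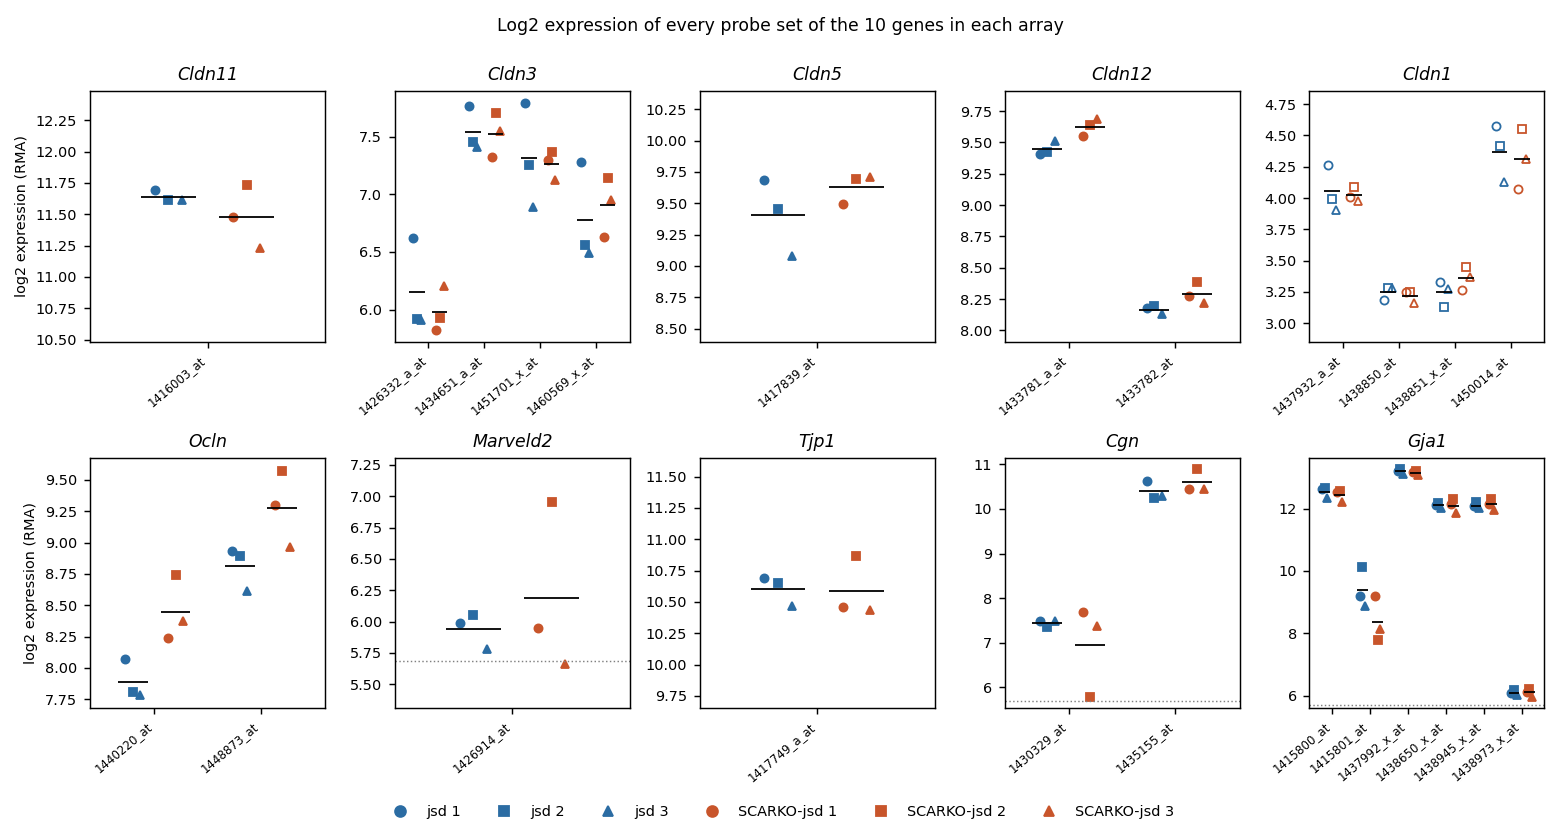
Log2 expression after RMA (vertical axis, its range set for each panel) of every probe set of the 10 genes, with jsd arrays in blue and SCARKO-jsd arrays in orange, a symbol shape for each replicate number, and bars at the group means. Open symbols are the untested probe sets of Cldn1 and the dotted line is the dim limit. The arrays separate by genotype for both probe sets of Ocln and both of Cldn12, and SCARKO-jsd 2 lies away from its group in Marveld2 and in 1 probe set of Cgn.

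Claudin-11, the claudin that Sertoli cell tight junction strands depend on, differed little. Cldn11 was 11.69, 11.62 and 11.61 in jsd arrays and 11.48, 11.74 and 11.23 in SCARKO-jsd arrays. The jsd arrays were close together, and SCARKO-jsd 2 lay above all of them while SCARKO-jsd 1 and 3 lay below. The difference was -0.16 ± 0.14 (SE, 95% interval -0.50 to 0.18), with a limma adjusted p = 0.690. Without SCARKO-jsd 2 it was -0.29 ± 0.11 (95% interval -0.54 to -0.03), still outside the threshold (limma, adjusted p = 0.241), and without SCARKO-jsd 3 it was -0.03 ± 0.12 (0.934).

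Claudin-3, which has been described as androgen-dependent in Sertoli cells, did not differ beyond its spread on any of 4 probe sets. On 1434651_a_at, the brightest, Cldn3 was 7.76, 7.45 and 7.41 in jsd arrays and 7.32, 7.70 and 7.55 in SCARKO-jsd arrays. The groups overlapped, with jsd 1 the highest array and SCARKO-jsd 1 the lowest, and the difference was -0.02 ± 0.15 (SE, 95% interval -0.37 to 0.34). The differences on 1426332_a_at, 1451701_x_at and 1460569_x_at were -0.17, -0.05 and 0.13, with limma adjusted p from 0.780 to 0.966 over the 4. On each of the 4 the highest jsd array was jsd 1, by 0.33 to 0.75 above the mean of jsd 2 and 3. Without jsd 1 the differences on 1426332_a_at, 1434651_a_at and 1451701_x_at turned to 0.07, 0.09 and 0.19, and without SCARKO-jsd 2 the 4 lay between -0.14 and 0.01.

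Claudin-12 did not pass the test, though its values were slightly higher in the SCARKO-jsd arrays on both probe sets. Cldn12, a claudin whose tail lacks the usual end that binds the plaque, was 9.41, 9.42 and 9.51 in jsd arrays and 9.55, 9.64 and 9.69 in SCARKO-jsd arrays on 1433781_a_at. On 1433782_at it was 8.18, 8.19 and 8.13 in jsd arrays and 8.27, 8.39 and 8.22 in SCARKO-jsd arrays. The groups did not overlap on either, by margins of a few hundredths. The differences were 0.18 ± 0.08 (SE) and 0.13 ± 0.08, 1.13-fold and 1.09-fold, with limma adjusted p of 0.455 and 0.595. Without SCARKO-jsd 2 they were 0.17 and 0.08 (limma, adjusted p = 0.419 and 0.688). With the pair of Ocln probe sets, those of Cldn12 made 4 of 20 tested member probe sets whose arrays did not overlap between the groups, all higher in SCARKO-jsd testes, beside 20.3% of all probe sets tested (11.6% higher and 8.72% lower).

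Claudin-5, a claudin of both endothelial and Sertoli cells, was 9.68, 9.45 and 9.08 in jsd arrays and 9.49, 9.69 and 9.71 in SCARKO-jsd arrays. The groups overlapped, since jsd 1 lay among the SCARKO-jsd values. The difference of Cldn5 was 0.23 ± 0.17 (SE, 95% interval -0.19 to 0.64, limma adjusted p = 0.640), and 0.20 ± 0.18 without SCARKO-jsd 2. It was 0.06 without jsd 3 and 0.37 without jsd 1. Endothelial markers had a median difference of 0.23 over 8 tested probe sets, with 0 called, 2 at an unadjusted p under 0.05 and 7 above 0. Kdr, which encodes the VEGF receptor VEGFR2, was the exception at -0.79. The mean level of the endothelial genes ran from 7.05 to 7.46 in jsd and from 7.15 to 7.82 in SCARKO-jsd arrays, highest in SCARKO-jsd 2, and its part in the Cldn5 values was not tested.

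Claudin-1, a widespread epithelial claudin, was dim on all of its 4 probe sets. Its values ran from 3.13 to 4.57 in jsd and from 3.16 to 4.55 in SCARKO-jsd arrays, under the dim limit of 5.69 throughout. Differences of Cldn1 lay between -0.06 and 0.11, and in a fit with no filter, where 0.28% of all probe sets were called, 0 of these 4 were called by limma (adjusted p from 0.750 to 0.945, 0 at an unadjusted p under 0.05). At this signal a difference in Cldn1 was not detectable, which is no measure of its absence.

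**Figure D2:**
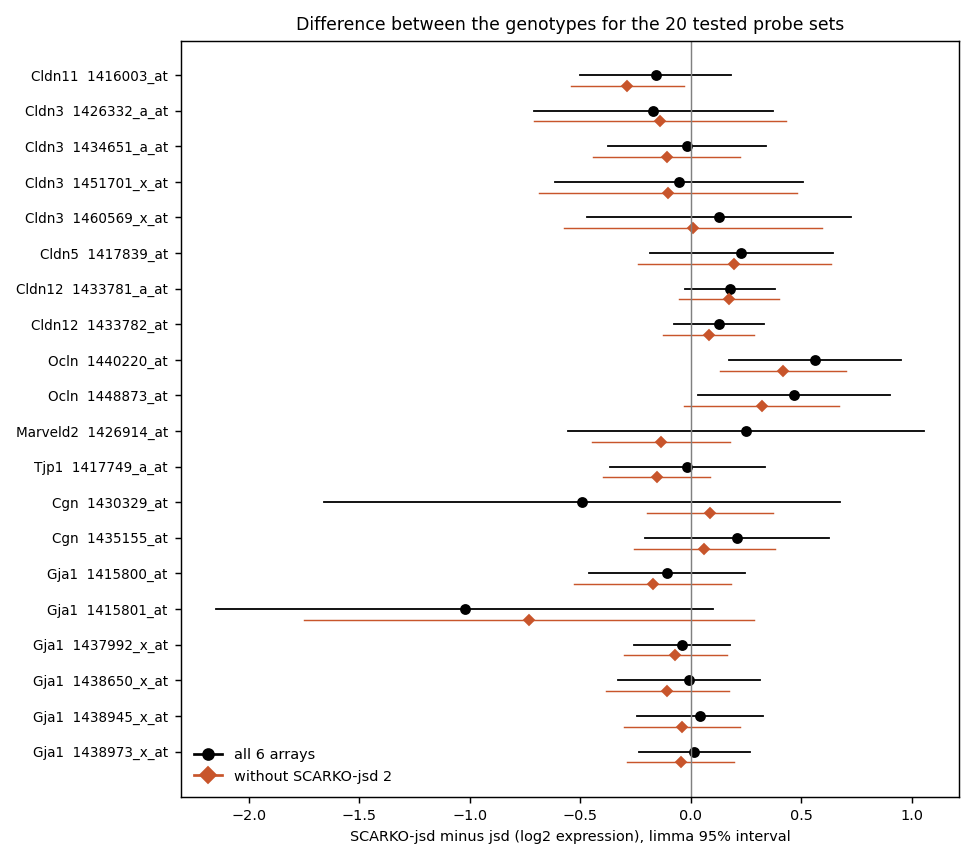
Difference SCARKO-jsd minus jsd (horizontal axis, log2 expression) with its limma 95% interval for the 20 tested probe sets, from all 6 arrays (black circles) and without SCARKO-jsd 2 (orange diamonds). Both Ocln intervals lie above 0 with all arrays, and those of Marveld2, 1 probe set of Cgn and 1 of Gja1 are the widest.

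Of the plaque proteins, ZO-1 did not differ beyond its spread. Tjp1, the scaffold that claudins, occludin and connexin 43 bind, was 10.69, 10.65 and 10.47 in jsd arrays and 10.46, 10.87 and 10.44 in SCARKO-jsd arrays. SCARKO-jsd 2 was the highest of all 6 arrays and SCARKO-jsd 3 the lowest, so the jsd values lay inside the SCARKO-jsd range. The difference was -0.02 ± 0.14 (SE, 95% interval -0.37 to 0.34, limma adjusted p = 0.971), and -0.15 ± 0.10 without SCARKO-jsd 2 (0.496).

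The probe sets of cingulin went opposite ways in SCARKO-jsd 2. On 1435155_at Cgn, which joins ZO-1 to myosin, was 10.63, 10.25 and 10.30 in jsd arrays and 10.45, 10.90 and 10.46 in SCARKO-jsd arrays. On 1430329_at it was 7.48, 7.36 and 7.48 in jsd arrays and 7.68, 5.79 and 7.38 in SCARKO-jsd arrays. SCARKO-jsd 2 was thus the highest array on the first and by far the lowest on the second. The differences were 0.21 ± 0.17 (SE) and -0.49 ± 0.48, with limma adjusted p of 0.670 and 0.717. Without SCARKO-jsd 2 they were 0.06 ± 0.13 and 0.09 ± 0.12 (limma, adjusted p = 0.862 and 0.764).

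Connexin 43 was nearly level on 5 of its 6 probe sets. On 1437992_x_at, the brightest, Gja1 was 13.22, 13.27 and 13.10 in jsd arrays and 13.18, 13.21 and 13.08 in SCARKO-jsd arrays, a difference of -0.04 ± 0.09 (SE, 95% interval -0.26 to 0.18). The differences on 1415800_at, 1438650_x_at, 1438945_x_at and 1438973_x_at were -0.11, -0.0077, 0.04 and 0.02, with limma adjusted p from 0.783 to 0.984 over these 5 probe sets. Without SCARKO-jsd 2 the 5 lay between -0.17 and -0.04, again with none called. Names ending in x_at mark probe sets whose probes can also bind other transcripts.

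The sixth probe set of connexin 43 stood apart. On 1415801_at Gja1 was 9.21, 10.11 and 8.87 in jsd arrays and 9.20, 7.79 and 8.13 in SCARKO-jsd arrays. SCARKO-jsd 1 lay among the jsd arrays, and the other 2 lay below all of them. The difference was -1.02 ± 0.46 (SE, 95% interval -2.15 to 0.10, limma adjusted p = 0.440), 2.03-fold lower, and the arrays spanned 2.32 log2 units against 0.19 to 0.47 on the other 5. It was -0.73 ± 0.43 without SCARKO-jsd 2 and between -1.44 and -0.66 with any 1 array left out, with adjusted p from 0.211 to 0.805. The mean of the 6 probe sets gave -0.19 ± 0.13 (limma, adjusted p = 0.538). Leydig cell markers, of cells that also hold connexin 43, had a median difference of 0.04 over 6 tested probe sets with 0 called and 0 at an unadjusted p under 0.05.

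**Figure D3:**
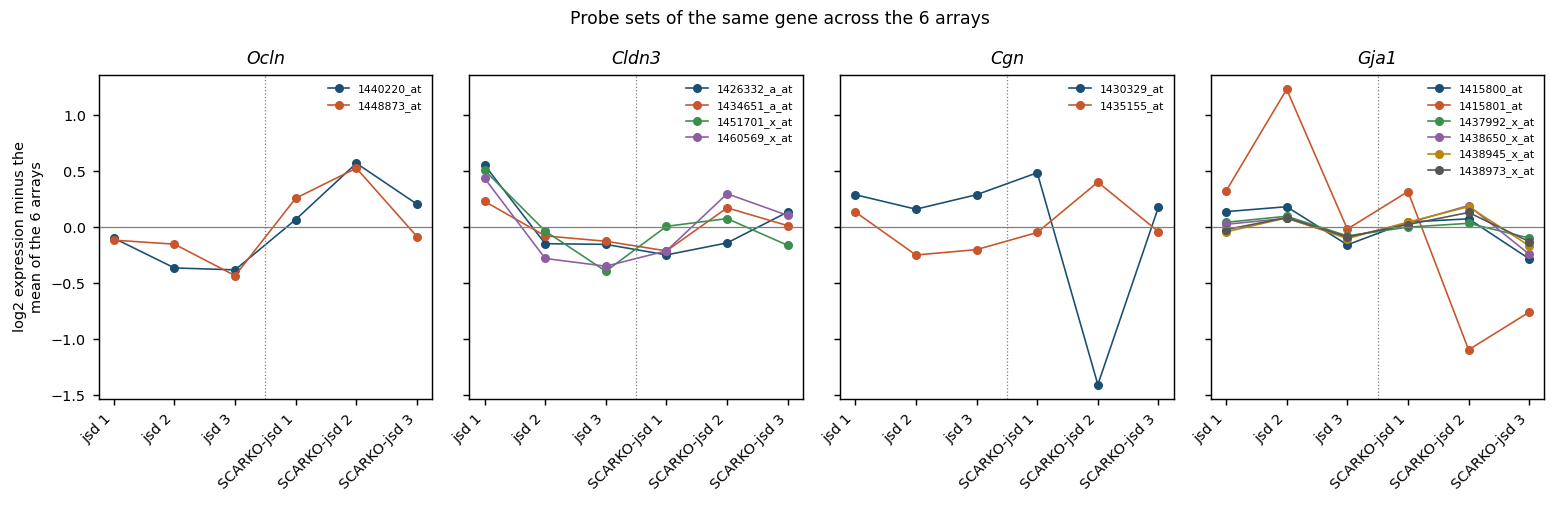
Log2 expression of each probe set minus its own mean over the 6 arrays (vertical axis) for Ocln, Cldn3, Cgn and Gja1, by array. Points of a probe set are joined only to tell probe sets apart. Both probe sets of Ocln are higher in the SCARKO-jsd arrays than in the jsd arrays, all 4 of Cldn3 are highest among the jsd arrays in jsd 1, 1430329_at of Cgn leaves its partner in SCARKO-jsd 2, and 1415801_at of Gja1 spans 2.32 log2 units.

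Among the other tight junction and gap junction genes 1 of 66 tested probe sets was called, where 0.5% of all probe sets tested were, and 15 of 66 had an unadjusted p under 0.05, where 12.8% of all did. Cldn7, a claudin of many simple epithelia, was 7.38, 7.04 and 6.88 in jsd arrays and 8.50, 8.44 and 8.30 in SCARKO-jsd arrays. No jsd array came near the SCARKO-jsd arrays. The rise was 1.32 ± 0.15 (SE), 2.49-fold (limma, adjusted p = 0.0356). Without SCARKO-jsd 2 the call was kept (limma, adjusted p = 0.0174). The call ended without any other array, where the rise was 1.20 to 1.46 with adjusted p from 0.0933 to 0.222, and with a replicate block (0.144). Without jsd 1, without jsd 2 and with the block no probe set of the whole table was called, so there the loss was fixed.

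Cldn7 was 1 of 10 tested probe sets, from 8 genes, of the other claudins, and the remaining 9 did not pass the test. The list's median difference was 0.0073. Its spread was wide, and the following were chosen after their values were seen. Cldn23 was 8.39, 8.15 and 7.96 in jsd arrays and 6.59, 7.20 and 6.17 in SCARKO-jsd arrays, a difference of -1.51 ± 0.27 (SE) outside the threshold with all arrays (limma, adjusted p = 0.0917) and -1.79 ± 0.17 without SCARKO-jsd 2, where it was called (0.0082). It was also called with the brightest probe set per gene (limma, adjusted p = 0.0196). Cldn4, the neighbour of Cldn3, had a difference of -0.45 ± 0.11 (limma, adjusted p = 0.185) and Cldn10 of 0.68 ± 0.20 (0.2498).

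Cldn4 and Cldn7 are epithelial claudins, so duct epithelium markers were set beside them. Of 12 probe sets of 8 such genes on the array, 8 were dim, among them all of Pax8, Krt7, Cdh1, Cdh16 and Lcn8. Krt8, a keratin of simple epithelia, was 6.27, 6.22 and 6.07 in jsd arrays and 6.43, 7.53 and 6.95 in SCARKO-jsd arrays on its brightest probe set (0.79 ± 0.27, SE, limma adjusted p = 0.314). Epcam had differences of -0.53 and -0.01 on its pair of probe sets. The mean level of the 3 tested genes was 6.74 to 6.80 in jsd arrays and 6.57 to 7.13 in SCARKO-jsd arrays. The part of such cells in the Cldn7 values was not tested.

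The other lists held no called probe set in the fit of every probe set. Their counts at an unadjusted p under 0.05 stand beside 12.8% of all probe sets tested, and the genes named had the smallest p of their list. Of 7 tested probe sets of MARVEL and tricellular proteins 3 had an unadjusted p under 0.05. These were 1436221_at (-1.17) and 1436293_x_at (-0.53) of Ildr2, a protein of tricellular junctions, and 1439381_x_at of Marveld1 (0.24). The remaining tested probe set of Ildr2 had a difference of -0.63, and those of Marveld1 had 0.15 and -0.27. On 1436221_at SCARKO-jsd 2 was the lowest array (7.085, beside 8.50 and 8.37 in SCARKO-jsd 1 and 3). Of 23 probe sets of plaque scaffolds 4 did, led by Amot, an angiomotin (-0.46), and Magi1, a scaffold with several PDZ domains (0.51), and the list's median was 0.07. Of 21 probe sets of polarity complexes 2 did. Pard6g, a partner of atypical protein kinase C, had a difference of 0.48 ± 0.09 (SE, limma adjusted p = 0.0973), called with the brightest probe set per gene (0.0322), and Prkci, an atypical protein kinase C, of -0.46. Of 5 probe sets of other connexins and pannexins 2 did, Panx1 at 0.54 and Gjc1, which encodes connexin 45, at 0.37, and the list's median was 0.37. The mean level of the 4 tested genes of this list was 7.01 to 7.16 in jsd arrays. In SCARKO-jsd arrays it was 7.20, 7.78 and 7.38, highest in SCARKO-jsd 2.

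**Figure D4:**
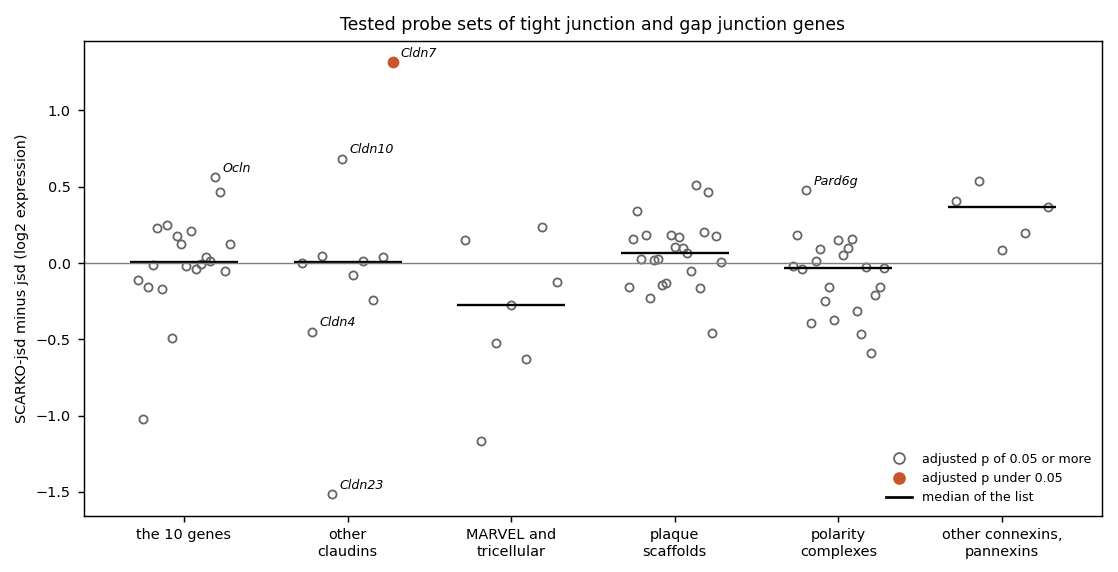
Difference SCARKO-jsd minus jsd (vertical axis, log2 expression) for each tested probe set of the 10 genes and of 5 lists of other junction genes, with the list median as a bar and called probe sets filled. Only the Cldn7 point is filled, and the 10 genes centre on 0.0043.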

How the data were processed

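The authors deposited one log2 value for each probe set and array. These came from RMA (affy), per the submitters' processing notes, and tool versions are not given in the sources used here. This method pulls all arrays to a shared distribution, so a shift of most transcripts one way cannot be seen. The values ran from 2.58 to 14.84, with an array median of 6.26 on SCARKO-jsd 2 and of 6.40 to 6.41 on the others. Of 45101 probe sets, 64 were controls, 34958 had 1 gene symbol in the platform annotation, 932 several and 9211 none. The symbols of the 24 member probe sets all matched RefSeq (GRCm38.p6) by gene ID.

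Every probe set above the dimmest 40% by mean was tested by the moderated two-sided test of limma 3.58.1 (R 4.3.3) on genotype alone, without a trend, and p-values were adjusted over all probe sets tested. The fit was tested on simulated data, where few probe sets were changed. It called 6 of 67 changes of 1.5-fold, 41 of 67 of 2-fold and 59 of 66 of 4-fold, with 4 false calls. Changes of 1.5-fold were thus mostly missed in that simulation. The members, lists, design and alternatives were chosen with earlier results of these data known. Named outside the members were called genes of the other lists, otherwise up to 2 genes of a list with the smallest p, and, chosen after their values were seen, Cldn23, Cldn4 and Cldn10 and the cell type markers given with their values. Same-numbered arrays were not taken as pairs, since their deviations from the group means correlated at -0.32, 0.28 and 0.43. Those of differently numbered arrays correlated at -0.48 to 0.43. The gene knocked out in Sertoli cells is not reported here. The number of arrays limits the precision. Python 3.11.15 and matplotlib 3.10.9 made the figures.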

Additional observations from a re-analysis of the deposited data

How the results depend on the processing

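No member probe set was called by limma under any planned setting that could be run, including each array left out. Nor was any called with the array weights added after seeing the data. In the reported test 2 of 20 had an unadjusted p under 0.05, beside 12.8% of all probe sets tested. With those weights 5 of 20 did, beside 6569 of all 27022 probe sets tested. The planned default array weights were not run, since their estimation stopped before it converged, and gene-by-gene weights stood in for them. With 0.5% of all probe sets called in the reported test, a count of 0 of 20 says little about the members. It was fixed in settings where 0 of all probe sets were called. Counts over all probe sets moved with the setting. From 135 called they came to 390 with the brightest probe set per gene, 311 with the mean of probe sets, 53 with median centring, 206 with trend and robust, 1649 with the array weights, 14 at an adjusted p of 0.01, 452 at 0.1 and 0 with a replicate block (limma, 2928 at an unadjusted p under 0.05). With 1 array left out they lay between 0 (without jsd 1 or jsd 2, with 2069 and 2193 at an unadjusted p under 0.05) and 614 (without SCARKO-jsd 2). Of the other junction genes, 1 called became 3, 2, 5, 0 and 3 with the brightest probe set, the mean, the array weights, 0.01 and 0.1, 0 with the replicate block (14 at an unadjusted p under 0.05), and 0 to 2 with 1 array left out.

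Several differences changed sign, most of them small ones. Those of Cgn on 1430329_at (-0.49) and of Marveld2 (0.25) were larger, and changed sign without SCARKO-jsd 2. With median centring they came to 0.029 for Tjp1, 0.026 for Cldn3 on 1434651_a_at, 0.0020 for Gja1 on 1437992_x_at and 0.036 on 1438650_x_at. With the array weights they came to -0.18 for Marveld2, and for Gja1 to -0.10 on 1438945_x_at and -0.095 on 1438973_x_at. With 1 array left out, Gja1 lay between -0.21 and 0.0055 on 1415800_at, -0.11 and 0.11 on 1438650_x_at, -0.040 and 0.13 on 1438945_x_at, and -0.045 and 0.085 on 1438973_x_at. Tjp1 lay between -0.15 and 0.061, Marveld2 between -0.13 and 0.51, Cgn on 1430329_at between -0.86 and 0.087, and Cldn3 between -0.29 and 0.066, -0.11 and 0.093, -0.26 and 0.19, and -0.015 and 0.38 on 1426332_a_at, 1434651_a_at, 1451701_x_at and 1460569_x_at. The cause was not tested. Signal limits Cldn1, and the probe sets of Marveld2 and 1438973_x_at of Gja1 lay near the dim limit.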
